A study of Homo sapiens with 12 samples.

Results

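HAS2, HAS3, CD44, HYAL1, HYAL2, HYAL3, CEMIP and CEMIP2 are 8 human genes for making, binding and breaking down hyaluronan, a very long unbranched sugar chain of the extracellular matrix. They are the rows of the deposited count table that carry these symbols, 8 of 25049 rows, and all 8 passed the low-count filter that left 21974 genes for testing. The genes were chosen by name with measured values of all 4 groups of these samples in view, over every comparison below. Their levels and changes are therefore a description. Their adjusted p-values, read out of the fit over all genes, set each change against the spread between libraries. They are no independent evidence that these genes respond.

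Hyaluronan is made at the plasma membrane by the synthases HAS1, HAS2 and HAS3, which join UDP-glucuronic acid and UDP-N-acetylglucosamine and push the growing chain out of the cell. CD44 is its main receptor on many cells, and it links the chain to the actin cytoskeleton. HYAL2 cuts long chains at the cell surface and HYAL1 degrades the pieces in lysosomes, while CEMIP and CEMIP2 act in a separate route of breakdown. MDA-MB-231 cells are known for abundant CD44, and HAS2 and CD44 have long been studied in breast cancer invasion and in spread to bone.

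Polyadenylated RNA was sequenced in 12 libraries of MDA-MB-231b cells, a bone-seeking derivative of the established triple-negative breast cancer line MDA-MB-231 that had been recovered from the bone marrow of athymic nude mice after intratibial and then intracardiac injection. All 4 groups had been transduced with lentiviral Edit-R CRISPR-Cas9 products: the GLI2 KO groups carried a guide RNA against GLI2, the gene of a transcription factor of the Hedgehog pathway, and the WT groups a non-targeted guide. Cells of each genotype received 50 nM paclitaxel, a drug that stabilises microtubules, or its solvent DMSO, for 2 days in complete medium, with 3 libraries per group. The series title places GLI2 in the response of this cancer type to paclitaxel. The labels do not tell whether the GLI2 KO cells were 1 clone or a pool, nor whether libraries of a group were grown separately. The p-values below therefore reflect the variation among these libraries alone, which may be technical.

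Libraries held 83230948 to 109018776 counts, and 3 counts corresponded to 0.0275 to 0.0360 CPM before TMM scaling, CPM being counts relative to library size, with TMM factors in all levels below. GLI2 transcript was present in all groups at means of 10.8 CPM in WT DMSO, 9.20 in GLI2 KO DMSO, 5.68 in WT paclitaxel and 4.16 in GLI2 KO paclitaxel. It was lower in GLI2 KO than in WT cells by a log2 fold change of -0.23 ± 0.08 (SE) in DMSO (edgeR adjusted p = 0.0253) and of -0.44 ± 0.09 in paclitaxel (adjusted p = 0.000243), a change that does not show how much GLI2 protein remained. The share of mitochondrial counts was 4.83 to 5.33% in paclitaxel and 3.99 to 4.69% in DMSO libraries, and genes with a count numbered 24923 to 24985 and 23712 to 24125. The 8 of 9 listed breast cancer line markers in the table summed to 3484 to 3500 CPM in WT DMSO and 2845 to 2896 in WT paclitaxel. Their sums were 3329 to 3553 in GLI2 KO DMSO and 2463 to 2707 in GLI2 KO paclitaxel. Most of each sum was VIM, at 2911 to 2941 CPM in WT DMSO and 2171 to 2192 in WT paclitaxel. The keratin gene KRT8 stood at 221 to 227 and 316 to 329 CPM in these 2 groups. PGR was at 0 to 0.0113 CPM in both WT groups, 2.18 to 2.98 in GLI2 KO DMSO and 0.716 to 0.953 in GLI2 KO paclitaxel. With paclitaxel 4 of the 8 markers rose and 3 fell in WT cells, against 34.6% of all tested genes higher and 32.1% lower. In GLI2 KO cells 3 rose and 4 fell, against 33.0% higher and 32.2% lower. The 6 of 9 listed stromal fibroblast markers in the table summed to 11.4 to 13.2 CPM in WT DMSO, 17.6 to 18.8 in WT paclitaxel, 14.8 to 20.1 in GLI2 KO DMSO and 28.8 to 32.0 in GLI2 KO paclitaxel. Among them PDGFRB stood at 3.73 to 4.76 CPM in WT DMSO and 8.54 to 12.7 in GLI2 KO DMSO. COL1A1 stood at 7.50 to 8.36 and 5.92 to 7.19 CPM in these groups, and POSTN was at 0 in the GLI2 KO DMSO libraries. With paclitaxel 5 of the 5 tested stromal markers rose in WT cells and 4 in GLI2 KO cells, and 0 fell, against 34.6% and 33.0% of all tested genes higher. The 7 of 8 haematopoietic markers in the table summed to 1.10 to 4.98 CPM and the 5 of 6 endothelial markers to 1.19 to 4.53 CPM, each higher under paclitaxel in both genotypes, and the part of these markers and library values in the results below was not tested. In bulk RNA, fewer cells of a kind and less RNA per cell cannot be told apart.

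CD44 stood far above the other 7 genes, and the 2 genes with the lowest levels were HYAL1 and CEMIP. Per kb of exon in the WT DMSO libraries, the mean level was 25.7 CPM per kb for CD44, 3.32 for HYAL2, 2.83 for CEMIP2, 1.86 for HYAL3, 1.10 for HAS3, 1.0 for HAS2, 0.205 for CEMIP and 0.175 for HYAL1. Within this order HAS3 and HAS2 were close, as were CEMIP and HYAL1, and HYAL2 and CEMIP2 changed places when the longest transcript served as the length (3.73 and 4.18 CPM per kb), as did CEMIP and HYAL1 (0.213 and 0.218). In the GLI2 KO DMSO libraries HAS2 reached 4.26 CPM per kb of exon, next after CD44, while HAS3 stood at 0.557. With the longest transcript as the length HAS2 came after CD44, CEMIP2 (5.63 CPM per kb) and HYAL2 (4.35). The plot of levels by library shows these shifts gene by gene.

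**Figure D1:**
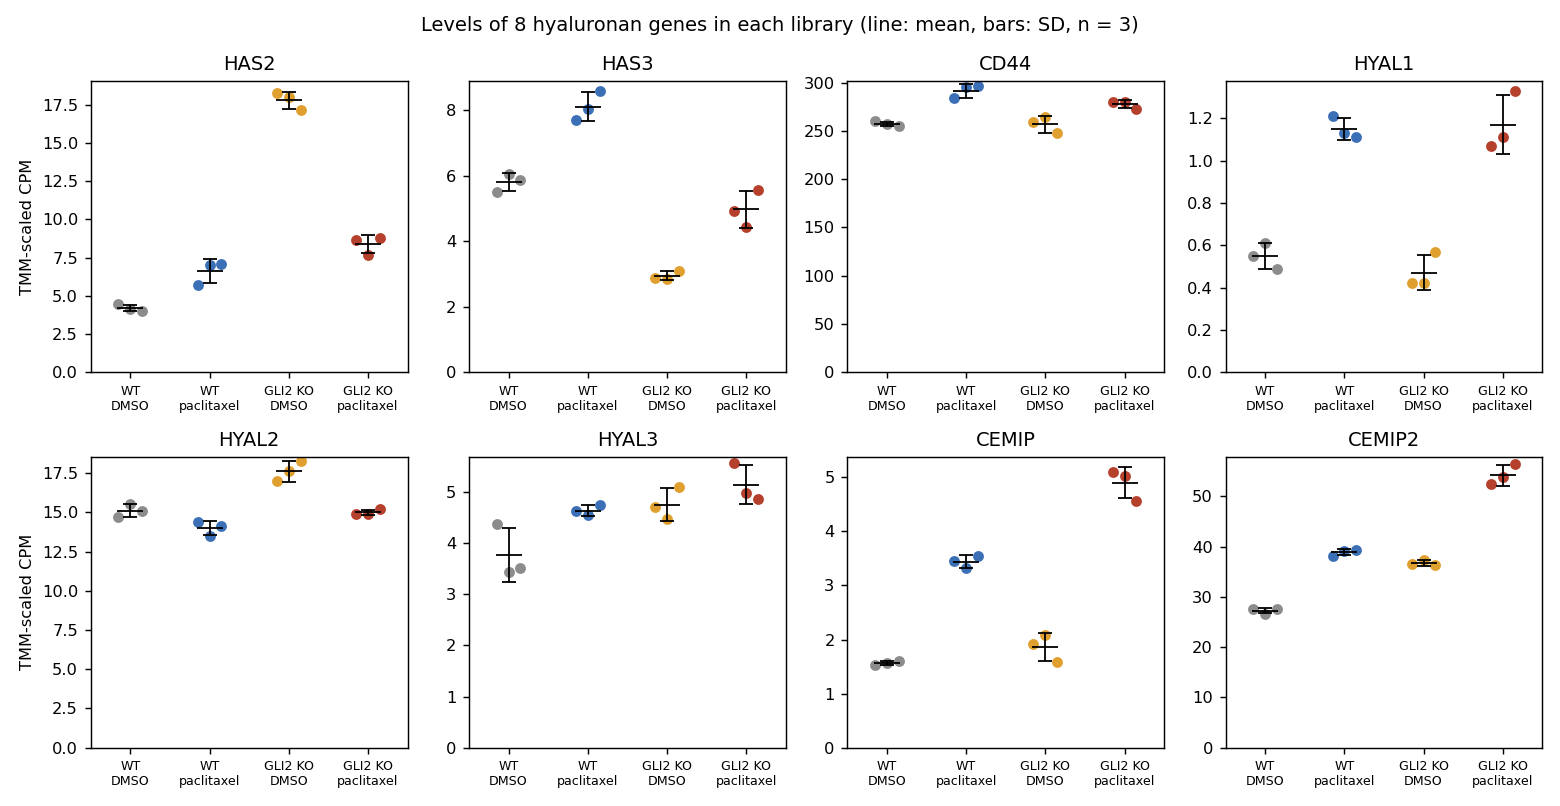
Level of each of the 8 genes in CPM scaled by TMM factors (vertical axis, from 0) in the 3 libraries of each of the 4 groups (horizontal axis); points are libraries, the line is the mean and bars are the SD. HAS2 is highest in GLI2 KO DMSO at 17.2 to 18.3 CPM, HAS3 is lowest there at 2.85 to 3.10 CPM, and CEMIP and CEMIP2 are highest in GLI2 KO paclitaxel.

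Most of the 8 genes were higher with paclitaxel in both genotypes. In WT cells 7 of the 8 genes rose and HYAL2 did not pass the threshold (adjusted p under 0.05), against 66.7% of all tested genes called in either direction, 34.6% higher and 32.1% lower. In GLI2 KO cells 5 rose (HAS3, CD44, HYAL1, CEMIP and CEMIP2), HAS2 and HYAL2 fell and HYAL3 did not pass, against 65.2% of all genes called, 33.0% higher and 32.2% lower. With so many genes called in each genotype, a count of calls says little about these 8. The median log2 fold change of the 8 genes was 0.50 in WT and 0.34 in GLI2 KO cells, beside 0.03 and 0.02 over all genes.

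Between genotypes in DMSO, HAS2, HYAL2, HYAL3 and CEMIP2 were higher in GLI2 KO cells and HAS3 was lower, 5 of 8 genes called against 41.6% of all genes, 22.0% higher and 19.6% lower. Under paclitaxel HAS2, CEMIP and CEMIP2 were higher and HAS3 and CD44 lower, again 5 of 8, against 45.6% of all genes, 23.4% higher and 22.2% lower. The libraries of the compared groups did not overlap for 8 of 8 genes in the paclitaxel comparison of WT cells (71.5% of all genes), 7 in that of GLI2 KO cells (67.2%), 5 between genotypes in DMSO (48.6%) and 7 between genotypes in paclitaxel (55.2%). The paclitaxel effect itself differed between the genotypes for 1 of the 8 genes, HAS2, against 13.5% of all genes called for such a difference, 6.56% higher and 6.93% lower in GLI2 KO cells. These comparisons share groups of libraries, so each gene's values are given side by side below and are not 4 independent results.

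**Figure D2:**
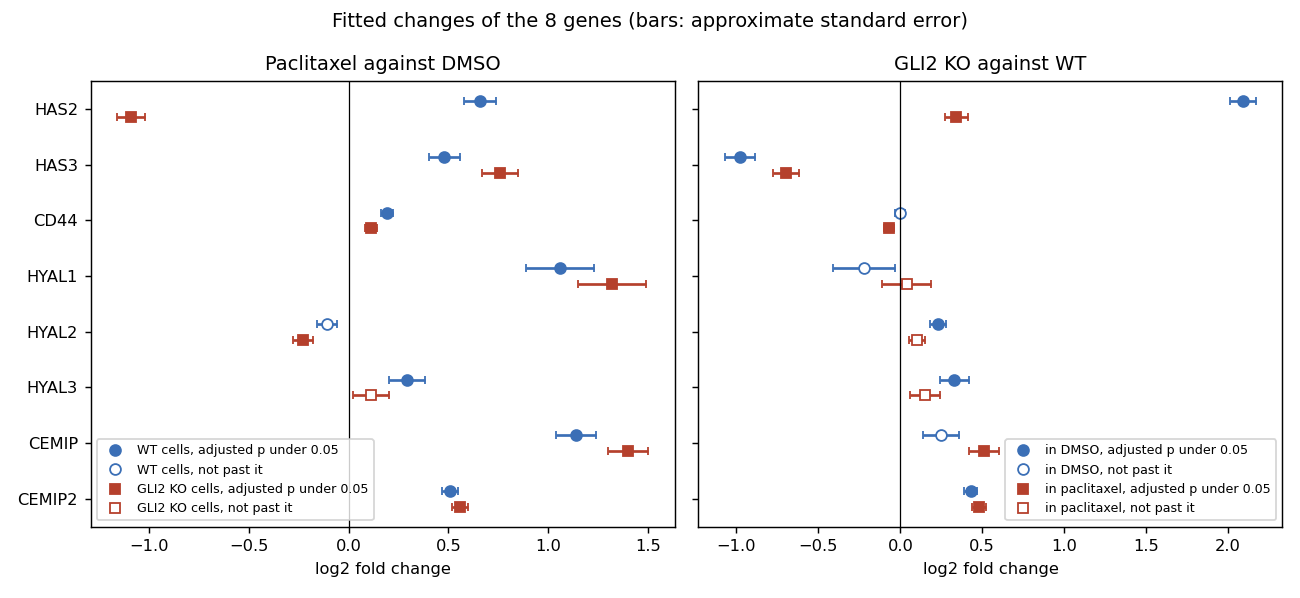
Fitted log2 fold changes (horizontal axis) of the 8 genes for paclitaxel against DMSO in each genotype (left) and for GLI2 KO against WT in each treatment (right); bars are approximate standard errors, filled symbols have an adjusted p under 0.05 and open symbols do not. HAS2 is the 1 gene whose paclitaxel change has opposite signs with both past the threshold, 0.66 in WT and -1.09 in GLI2 KO cells, and its genotype difference goes from 2.09 in DMSO to 0.34 in paclitaxel.

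HAS2, whose product makes long hyaluronan chains and which is the synthase most often tied to breast cancer invasion, moved in opposite directions with the drug in the 2 genotypes. WT DMSO libraries had 4.43, 4.14 and 4.0 CPM and WT paclitaxel libraries 5.73, 7.03 and 7.11 CPM. GLI2 KO DMSO libraries had 18.3, 18.0 and 17.2 CPM and GLI2 KO paclitaxel libraries 8.67, 7.69 and 8.80 CPM. The 4 groups did not overlap, in the order WT DMSO, WT paclitaxel, GLI2 KO paclitaxel and GLI2 KO DMSO.

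Paclitaxel raised HAS2 in WT cells by 0.66 ± 0.08 on the log2 scale (1.58-fold, edgeR adjusted p = 1.11e-07). In GLI2 KO cells HAS2 fell by 1.09 on the log2 scale (SE 0.07, adjusted p = 1.32e-12), and this was the 154th lowest change of 21974. The paclitaxel effect of GLI2 KO cells minus that of WT cells was -1.75 ± 0.11 (adjusted p = 3.04e-10), between -1.84 and -1.69 when any 1 library was left out. In DMSO HAS2 was 4.25-fold higher in GLI2 KO than in WT cells (log2 2.09 ± 0.08, adjusted p = 4.27e-17). In paclitaxel it was 1.27-fold higher (0.34 ± 0.07, adjusted p = 0.000533).

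HAS2 lies on chromosome 8, minus strand, and shares 201 exon bases (4.80% of its exons) with the antisense gene HAS2-AS1 on the other strand. Whether strand was used in the counting is not stated by the labels, so reads from the shared bases cannot be told apart. HAS2-AS1 was at 0.657 CPM in WT DMSO, 0.774 in WT paclitaxel, 1.65 in GLI2 KO DMSO and 1.14 in GLI2 KO paclitaxel. It was higher in GLI2 KO than in WT cells in DMSO (1.30 ± 0.18 on the log2 scale, adjusted p = 1.39e-06) and fell with paclitaxel in GLI2 KO cells by 0.55 (SE 0.17, adjusted p = 0.00577). Its change with paclitaxel in WT cells did not pass (0.21 ± 0.20, adjusted p = 0.357), nor did the difference between the effects (-0.75 ± 0.26, adjusted p = 0.0519).

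Many genes around HAS2 were also higher in GLI2 KO cells. Of the 50 nearest tested genes on its chromosome, 25 on each side, 31 were called higher in GLI2 KO than in WT cells in DMSO and 2 lower, with a median log2 fold change of 0.41 and a range of -1.11 to 3.34, against 22.0% of all genes called higher and 19.6% lower. Under paclitaxel 34 were called higher and 4 lower, with a median of 0.37, against 23.4% and 22.2% of all genes. In DMSO 4 of the 50 exceeded HAS2, and in paclitaxel 29 of the 50 did, so that under the drug its own change lay below the median of its neighbours. The nearest genes before HAS2 in gene order had 1.95 and 1.60 in DMSO, both called. Those after it had 1.30, for HAS2-AS1, which is counted among the 50, and 0.61, not called. The difference of the paclitaxel effects had a median of -0.05 over the same 50 genes, against -1.75 for HAS2, with 1 called higher and 5 lower. Copy number was not measured, and the part of this region in the HAS2 level was not tested.

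**Figure D3:**
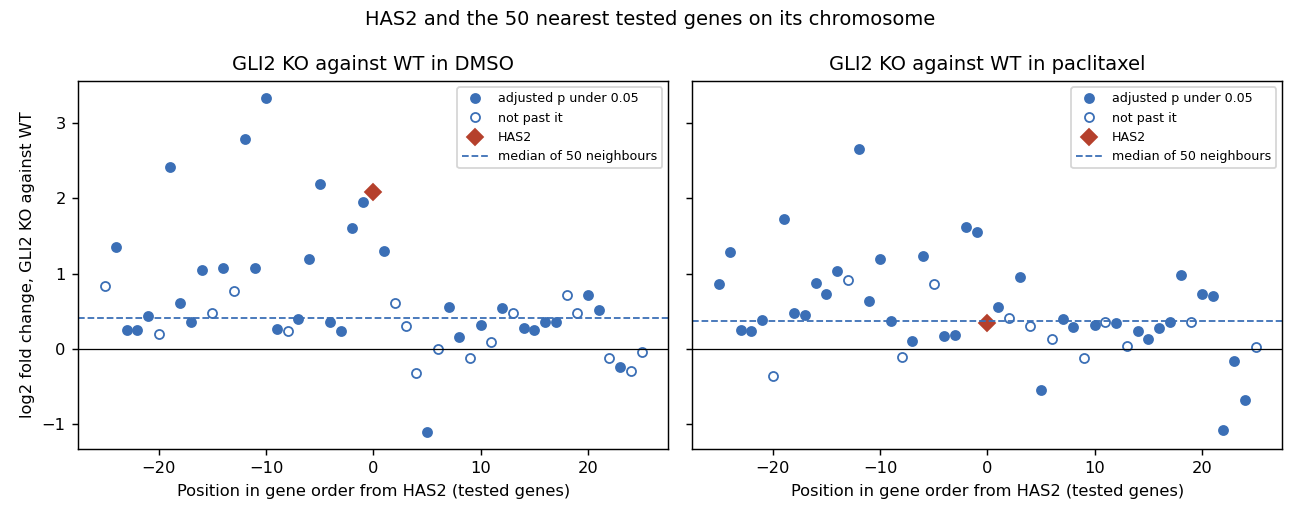
Log2 fold change of GLI2 KO against WT (vertical axis) for HAS2 (diamond) and the 25 tested genes on each side of it by gene order (horizontal axis), in DMSO (left) and paclitaxel (right); filled circles have an adjusted p under 0.05 and the dashed line is the median of the 50 neighbours. HAS2 lies far above that median in DMSO (2.09 against 0.41) and just under it in paclitaxel (0.34 against 0.37).

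HAS3, the other synthase analysed, responded to paclitaxel in the same direction in both genotypes and was lower in GLI2 KO cells under both treatments. WT DMSO libraries had 5.51, 6.07 and 5.86 CPM and WT paclitaxel libraries 7.72, 8.03 and 8.61 CPM. GLI2 KO DMSO libraries had 2.88, 2.85 and 3.10 CPM and GLI2 KO paclitaxel libraries 4.93, 4.44 and 5.58 CPM. Only the GLI2 KO paclitaxel and WT DMSO groups, neighbours in the order of levels, overlapped.

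Paclitaxel raised HAS3 1.40-fold in WT cells (0.48 ± 0.08 on the log2 scale, edgeR adjusted p = 8.20e-06) and 1.70-fold in GLI2 KO cells (0.76 ± 0.09, adjusted p = 5.00e-08). The difference between these effects did not pass the threshold (0.28 ± 0.12, adjusted p = 0.132), which does not show that they are equal. HAS3 was lower in GLI2 KO than in WT cells by a log2 fold change of -0.98 ± 0.09 in DMSO (adjusted p = 1.12e-09) and -0.70 ± 0.08 in paclitaxel (adjusted p = 6.68e-08). The 50 tested genes nearest to HAS3 had medians of -0.12 and -0.04 in these 2 comparisons. HAS3 spans chr16:69105564-69118719 on the plus strand (GRCh38, GENCODE 29), and 6.90% of its exon bases are shared with CHTF8, which was at 0.436 to 0.675 CPM in the 4 group means.

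Promoter windows of 300 bases, 250 before and 50 after a start site, were taken from RefSeq (GRCh38.p14) for the 7 of 8 genes that matched, all but HAS2, and gave 8 windows since HYAL3 has a pair. The counts of windows below therefore do not cover HAS2. Both strands were searched for a GLI binding site (GACCACCCA), its core CCACCCA, an AP-1 site (TGANTCA), the GC box GGGCGG bound by SP factors and the TATA box TATAAA. The full GLI site was in 0 of the 8 windows and in 0.236% of 35116 promoters, and the AP-1 site was in 0 of 8 and 7.71%. The core, which also lies inside the full site, was in the windows of HYAL1 and HYAL3 (9.19% of promoters), the GC box in 7 of 8 windows (45.0%) and TATAAA in that of CEMIP (11.5%). A match is a description and not a binding site, and the absence of these letters from a window says nothing about the factor. The stretch before a start site of HAS3, the synthase that rose with paclitaxel in both genotypes, is shown with its GC box in capitals, here read on the opposite strand. It covers chr16:69107290-69107539 on the plus strand, within the gene and outside its annotated exons.
HAS3: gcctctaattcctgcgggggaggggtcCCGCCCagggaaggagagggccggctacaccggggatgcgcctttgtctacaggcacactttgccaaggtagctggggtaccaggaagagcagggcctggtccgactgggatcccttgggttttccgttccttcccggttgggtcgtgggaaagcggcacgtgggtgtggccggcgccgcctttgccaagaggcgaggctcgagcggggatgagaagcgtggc

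The balance of the synthases differed between genotypes under both treatments, and with the drug in GLI2 KO cells. The ratio of HAS2 to HAS3, each per kb of exon, was 1.01, 0.861 and 0.861 in WT DMSO libraries and 0.937, 1.11 and 1.04 in WT paclitaxel libraries. It was 8.01, 7.96 and 7.02 in GLI2 KO DMSO libraries and 2.22, 2.18 and 1.99 in GLI2 KO paclitaxel libraries. All 6 GLI2 KO libraries lay above all 6 WT libraries, and within the GLI2 KO genotype the DMSO and paclitaxel libraries were apart. The summed level of both synthases was 2.10 ± 0.0371 CPM per kb (SD, n = 3) in WT DMSO, 3.12 ± 0.258 in WT paclitaxel, 4.81 ± 0.108 in GLI2 KO DMSO and 2.94 ± 0.246 in GLI2 KO paclitaxel. Under the drug the summed levels of the genotypes overlapped, at 2.83 to 3.32 in WT and 2.67 to 3.16 in GLI2 KO libraries. With the longest transcript as the length, the mean ratios were 0.728, 0.820, 6.11 and 1.70 in the order WT DMSO, WT paclitaxel, GLI2 KO DMSO and GLI2 KO paclitaxel. HAS1, which is in the first pathway list below, was not among the genes tested, and no library measured hyaluronan itself.

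**Figure D4:**
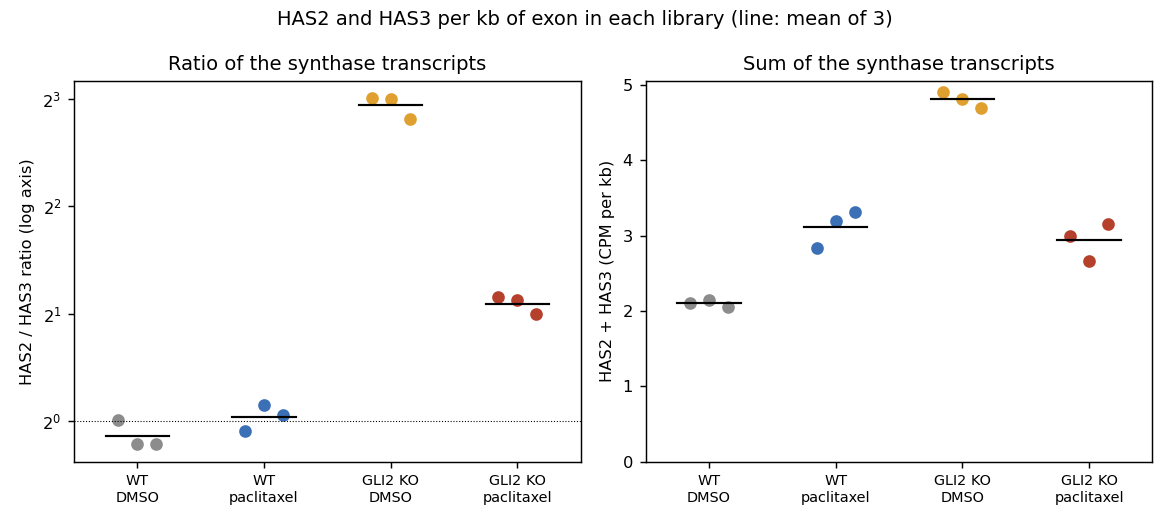
Ratio of HAS2 to HAS3 per kb of exon (left, log axis; the dotted line marks equal levels) and their summed level in CPM per kb (right, axis from 0) in each of the 12 libraries by group, with the group mean as a line. GLI2 KO DMSO libraries have ratios of 7.02 to 8.01 and GLI2 KO paclitaxel libraries 1.99 to 2.22, against 0.861 to 1.11 in the WT libraries.

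CD44, the receptor, was abundant in every group. WT DMSO libraries had 260, 257 and 255 CPM and GLI2 KO DMSO libraries 259, 265 and 248 CPM. Under paclitaxel WT libraries had 284, 296 and 297 CPM and GLI2 KO libraries 280, 280 and 273 CPM. The DMSO groups overlapped, and every paclitaxel library lay above every DMSO library.

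CD44 rose with paclitaxel by 13.7% in WT cells (0.19 ± 0.03 on the log2 scale, edgeR adjusted p = 7.43e-06). The rise in GLI2 KO cells was 7.95% (0.11 ± 0.03, adjusted p = 0.00244). Both sizes depended on the scaling, with log2 fold changes of 0.34 in WT and 0.29 in GLI2 KO cells under library totals. Between genotypes in DMSO the change was 0.00 ± 0.03 (adjusted p = 1). In paclitaxel CD44 was lower in GLI2 KO cells by a log2 fold change of -0.07 ± 0.03 (adjusted p = 0.0446), which ran from -0.11 to -0.06 over the alternatives, a call lost with RLE factors (adjusted p = 0.0541) and in 8 of the 12 fits that left out 1 library (GLI2 KO DMSO library 1, GLI2 KO paclitaxel libraries 1, 2 and 3, WT DMSO libraries 1 and 3, and WT paclitaxel libraries 2 and 3), with an adjusted p of up to 0.16. CD44 spans chr11:35138870-35232402 on the plus strand with 39 annotated transcripts. Counts per gene do not separate its splice forms.

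The hyaluronidase genes HYAL1, HYAL2 and HYAL3 lie together within 30076 bases of chromosome 3 on the minus strand, yet they did not move together. HYAL1, the lysosomal enzyme, was low and rose with paclitaxel in both genotypes. Its WT libraries had 0.550, 0.611 and 0.486 CPM in DMSO and 1.21, 1.13 and 1.11 in paclitaxel. Its GLI2 KO libraries had 0.423, 0.420 and 0.567 CPM in DMSO and 1.07, 1.11 and 1.33 in paclitaxel, so the treatments did not overlap and the genotypes did.

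These HYAL1 levels rest on 33 to 147 counts per library. The gene rose 2.09-fold in WT cells (1.06 ± 0.17 on the log2 scale, edgeR adjusted p = 4.74e-06) and 2.49-fold in GLI2 KO cells (1.32 ± 0.17, adjusted p = 3.07e-07). Genotype changes were -0.22 ± 0.19 in DMSO (adjusted p = 0.406) and 0.04 ± 0.15 in paclitaxel (adjusted p = 0.868), and neither passed. HYAL1 spans chr3:50299889-50312381. The stretch before one of its start sites, chr3:50303621-50303787 in the direction of the minus strand, is shown because HYAL1 and CEMIP had the largest rises with paclitaxel among the 8 genes. Its capitals mark 2 GC boxes on the opposite strand.
HYAL1: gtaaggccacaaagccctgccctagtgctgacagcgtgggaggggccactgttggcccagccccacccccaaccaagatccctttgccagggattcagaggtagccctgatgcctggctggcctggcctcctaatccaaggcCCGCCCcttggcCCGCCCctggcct

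HYAL2, which cuts long chains at the cell surface, was the 1 gene of the 8 with no rise under paclitaxel in either genotype. WT libraries had 14.7, 15.5 and 15.1 CPM in DMSO and 14.4, 13.5 and 14.1 in paclitaxel. GLI2 KO libraries had 17.0, 17.6 and 18.3 CPM in DMSO and 14.9, 14.9 and 15.2 in paclitaxel. GLI2 KO DMSO libraries stood above all others, and the GLI2 KO paclitaxel group overlapped the WT DMSO group.

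HYAL2 fell by 0.23 on the log2 scale with paclitaxel in GLI2 KO cells (SE 0.05, edgeR adjusted p = 0.000137), a call lost when libraries were scaled by their totals (-0.06, adjusted p = 0.321). In WT cells its change was -0.11 ± 0.05 (adjusted p = 0.0529), which turned to 0.03 with upper-quartile factors and 0.05 with library totals. Fits that left out 1 library gave -0.13 to -0.09 with adjusted p from 0.0347 to 0.175, so some of them passed the threshold. HYAL2 was higher in GLI2 KO than in WT cells in DMSO (0.23 ± 0.05, adjusted p = 0.000385), and in paclitaxel the change was 0.10 ± 0.05 (adjusted p = 0.0947). HYAL2 spans chr3:50317790-50322906 and shares 11.2% of its exon bases with TUSC2 on the same strand, whose group means were 37.0 to 40.1 CPM, so part of the HYAL2 counts may belong to TUSC2.

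HYAL3, a family member of weak known activity, moved little. WT libraries had 4.37, 3.43 and 3.51 CPM in DMSO and 4.62, 4.54 and 4.75 in paclitaxel. GLI2 KO libraries had 4.70, 4.46 and 5.10 CPM in DMSO and 5.57, 4.97 and 4.87 in paclitaxel. The WT DMSO group lay below the other 3, of which the WT paclitaxel and GLI2 KO DMSO groups overlapped, as did both GLI2 KO groups.

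HYAL3 rose with paclitaxel in WT cells (0.29 ± 0.09 on the log2 scale, edgeR adjusted p = 0.00761), but not past the threshold without WT DMSO library 2 (0.22, adjusted p = 0.0551), while library totals gave 0.45. In GLI2 KO cells the change was 0.11 ± 0.09 (adjusted p = 0.292), and it passed when scaled by library totals (0.29, adjusted p = 0.00755) or by upper quartiles (0.23, adjusted p = 0.028). It was higher in GLI2 KO than in WT cells in DMSO (0.33 ± 0.09, adjusted p = 0.00572). Under paclitaxel the change was 0.15 ± 0.09 (adjusted p = 0.192). HYAL3 spans chr3:50292831-50299468 and shares 14.3% of its exon bases with NAA80 and IFRD2 on the same strand. IFRD2 stood at 116 to 149 CPM and fell with paclitaxel in WT cells (-0.28 ± 0.04, adjusted p = 7.26e-07), and so did NAA80 (-0.31 ± 0.07, adjusted p = 0.000848).

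CEMIP, a secreted protein that binds hyaluronan and promotes its breakdown, had the largest fitted rise with paclitaxel of the 8 genes in both genotypes, with HYAL1 within its standard error. WT libraries had 1.53, 1.56 and 1.60 CPM in DMSO and 3.45, 3.33 and 3.55 in paclitaxel. GLI2 KO libraries had 1.92, 2.08 and 1.58 CPM in DMSO and 5.10, 5.03 and 4.56 in paclitaxel. The DMSO groups overlapped, the WT paclitaxel libraries lay above both, and the GLI2 KO paclitaxel libraries were above all.

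CEMIP rose 2.20-fold in WT cells (1.14 ± 0.10 on the log2 scale, edgeR adjusted p = 8.14e-10) and 2.63-fold in GLI2 KO cells (1.40 ± 0.10, adjusted p = 8.54e-12), and the difference between these effects did not pass (0.26 ± 0.15, adjusted p = 0.276). Under paclitaxel it was 1.42-fold higher in GLI2 KO than in WT cells (0.51 ± 0.09, adjusted p = 6.18e-05). In DMSO the change of 0.25 ± 0.11 did not pass (adjusted p = 0.0861), and it passed without GLI2 KO DMSO library 3 (0.36, adjusted p = 0.0147). CEMIP spans chr15:80779343-80951776 on the plus strand, and 2.94% of its exon bases are shared with MESD, which fell in both genotypes (-0.34 ± 0.04 and -0.49 ± 0.04). The stretch just before the annotated gene, chr15:80779120-80779342 on the plus strand, carries 3 GC boxes, in capitals, of which the first is on the printed strand.
CEMIP: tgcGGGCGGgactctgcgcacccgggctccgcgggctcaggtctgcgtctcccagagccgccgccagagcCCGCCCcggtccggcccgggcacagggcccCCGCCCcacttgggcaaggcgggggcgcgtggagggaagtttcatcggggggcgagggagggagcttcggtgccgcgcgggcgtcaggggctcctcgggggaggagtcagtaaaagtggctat

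CEMIP2, a membrane protein related to CEMIP and described as a hyaluronidase of the cell surface, was higher with the drug in both genotypes and higher in GLI2 KO cells under both treatments. WT libraries had 27.6, 26.6 and 27.5 CPM in DMSO and 38.2, 39.2 and 39.4 in paclitaxel. GLI2 KO libraries had 36.5, 37.4 and 36.3 CPM in DMSO and 52.4, 53.8 and 56.4 in paclitaxel. No groups overlapped, although GLI2 KO DMSO and WT paclitaxel libraries lay close together.

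CEMIP2 rose with paclitaxel 1.43-fold in WT cells (0.51 ± 0.04 on the log2 scale, edgeR adjusted p = 9.10e-12) and 1.48-fold in GLI2 KO cells (0.56 ± 0.04, adjusted p = 1.02e-12). The effects differed by 0.05 ± 0.05 (adjusted p = 0.599). The gene was higher in GLI2 KO than in WT cells by 0.43 ± 0.04 in DMSO (adjusted p = 5.23e-10) and 0.48 ± 0.04 in paclitaxel (adjusted p = 3.65e-11). CEMIP2 spans chr9:71683366-71816690 on the minus strand. Its 50 nearest tested genes had a median genotype change of 0.14 in DMSO, with 20 higher and 2 lower, and of 0.14 in paclitaxel, with 21 higher and 3 lower, and the part of this region in the CEMIP2 level was not tested. Per kb of exon CEMIP2 exceeded CEMIP by 13.8 ± 0.480 times (SD, n = 3) in WT DMSO and 15.8 ± 2.10 times in GLI2 KO DMSO, and by 8.96 ± 0.311 and 8.80 ± 0.878 times under paclitaxel.

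Pathway genes outside the 8 were counted beside the shares of all genes called with paclitaxel, 34.6% higher and 32.1% lower in WT and 33.0% higher and 32.2% lower in GLI2 KO cells, and between genotypes, 22.0% higher and 19.6% lower in DMSO and 23.4% higher and 22.2% lower in paclitaxel. The first list holds genes that bind or turn over hyaluronan. Of 34 listed genes 18 were tested, and 13 rose and 3 fell in WT cells, with a median log2 fold change of 0.59. Among the genes that rose there, AMBP, NCAN, HAPLN1, ITIH3, ITIH4 and IMPG2 stayed under 1 CPM in both treatments. AMBP went from 0.0157 to 0.198 CPM and NCAN from 0.0154 to 0.153. The falls were those of VCAN (89.9 to 71.4 CPM), HMMR (27.4 to 23.1) and GUSB (42.8 to 40.2). In GLI2 KO cells 7 of the list rose and 2 fell, with a median of 0.10. Of these rises, those of NCAN (0 to 0.106 CPM), AMBP (0.00378 to 0.0995), ITIH3 (0.0919 to 0.554) and IMPG2 (0.434 to 0.755) stayed under 1 CPM. Library totals gave 15 rises and 1 fall in WT and 11 rises and 0 falls in GLI2 KO cells. In the test of the difference of effects 2 of the 18 were higher in GLI2 KO cells and 6 lower, or 2 and 3 with library totals. The scavenger receptor gene STAB1, which clears hyaluronan, rose from 0.244 to 1.38 CPM in WT cells (2.49 ± 0.20 on the log2 scale) and from 0.191 to 1.0 CPM in GLI2 KO cells (2.38 ± 0.22). HAPLN3, a link protein that ties proteoglycans to hyaluronan, rose by 0.78 ± 0.08 and 0.42 ± 0.08 in the same order. TLR4, an innate receptor reported to sense hyaluronan fragments, rose by 0.59 ± 0.05 and 0.38 ± 0.05.

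Between genotypes the same list had 7 genes higher and 2 lower in GLI2 KO cells in DMSO (median 0.02) and 6 higher and 4 lower in paclitaxel (median 0.00). HYAL4, a relative of the hyaluronidases that acts mainly on chondroitin sulfate, went from 0.881 CPM in WT to 3.19 in GLI2 KO cells in DMSO (1.86 ± 0.15 on the log2 scale) and from 1.32 to 3.38 CPM in paclitaxel (1.36 ± 0.14). The hyaluronan receptor gene LAYN was higher by 0.75 ± 0.04 and 0.59 ± 0.04. PTX3, which helps to crosslink hyaluronan, was lower in GLI2 KO cells under paclitaxel by a log2 fold change of -0.64 ± 0.04.

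Genes for the supply, use and turnover of the UDP-sugar precursors, OGT, OGA, UXS1 and AMDHD2 among them, mostly fell with paclitaxel. Of 18 genes, 2 rose and 14 fell in WT cells (median -0.26) and 1 rose and 13 fell in GLI2 KO cells (median -0.30), and library totals gave 4 rises and 10 falls in WT and 6 and 11 in GLI2 KO cells. GFPT2, a rate-limiting enzyme of the hexosamine pathway, fell from 214 to 149 CPM in WT cells (-0.52 ± 0.04 on the log2 scale) and from 204 to 135 CPM in GLI2 KO cells (-0.60 ± 0.04). UAP1, which makes UDP-N-acetylglucosamine, changed by -0.41 ± 0.04 and -0.40 ± 0.04. UGDH, which makes UDP-glucuronic acid, rose by 0.25 ± 0.03 and 0.17 ± 0.03. Between genotypes 5 genes were higher and 3 lower in DMSO (median 0.00) and 6 higher and 6 lower in paclitaxel (median -0.06), and PGM1 was higher in GLI2 KO cells by 0.33 ± 0.03 and 0.27 ± 0.03.

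Genes for the splicing, anchoring, shedding and partners of CD44 fell more often than they rose with paclitaxel. Of 26, 5 rose and 18 fell in WT cells (median -0.18) and 6 rose and 17 fell in GLI2 KO cells (median -0.19), although library totals gave 7 and 10 in WT and 9 and 11 in GLI2 KO cells. RDX, which couples CD44 to actin, fell from 141 to 92.0 CPM in WT cells (-0.61 ± 0.03 on the log2 scale) and from 174 to 132 CPM in GLI2 KO cells (-0.40 ± 0.03). SPP1, the gene of the CD44 ligand osteopontin, rose from 1.42 to 5.04 CPM and from 2.38 to 6.97 CPM. Between genotypes 10 genes were higher and 4 lower in DMSO (median -0.00) and 11 higher and 4 lower in paclitaxel (median 0.07). ESRP1, a splicing factor that favours the variant exons of CD44, went from 0.412 CPM in WT to 1.94 in GLI2 KO cells in DMSO (2.22 ± 0.15) and from 0.521 to 2.59 CPM in paclitaxel (2.32 ± 0.14).

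Genes for the related heparan and chondroitin sulfate chains served as a comparison from the same class of polymers. Of 19 tested, 2 rose and 8 fell with paclitaxel in WT cells (median -0.07), which became 8 rises and 5 falls with library totals. In GLI2 KO cells 4 rose and 11 fell (median -0.15), against 8 and 7 with library totals. XYLT2, which starts the chains on their core proteins, fell by 0.80 and 0.79 on the log2 scale in WT and GLI2 KO cells (SE 0.05 in each). Between genotypes 8 genes were higher and 2 lower in DMSO (median 0.10) and 7 higher and 4 lower in paclitaxel (median 0.08). EXT1 was higher in GLI2 KO cells by 0.36 ± 0.03 on the log2 scale in DMSO and 0.45 ± 0.03 in paclitaxel. HPSE, the heparan-cutting enzyme, was lower in GLI2 KO cells by a log2 fold change of -0.83 ± 0.06 in DMSO and -0.47 ± 0.05 in paclitaxel. 

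**Figure D5:**
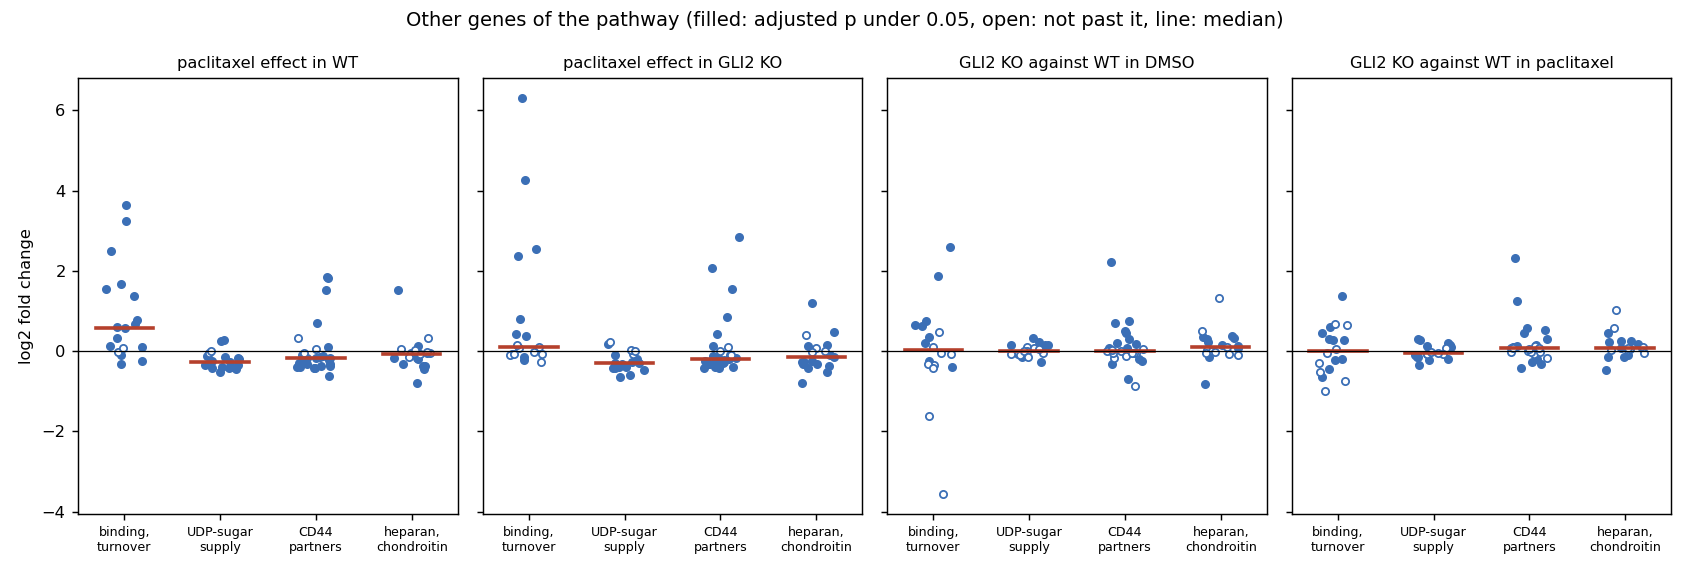
Log2 fold changes (vertical axis) of the tested genes in 4 pathway lists (horizontal axis) in 4 comparisons, 1 panel each; filled points have an adjusted p under 0.05, open points do not, and the line is the median of a list. With paclitaxel the medians of the UDP-sugar genes lie below 0 in both genotypes (-0.26 and -0.30). That of the binding and turnover genes is 0.59 in WT cells, with AMBP, NCAN, HAPLN1, ITIH3, ITIH4 and IMPG2 under 1 CPM there. NCAN, the topmost point in the second panel, had no count in GLI2 KO DMSO libraries, so its fitted value is no estimate of size.

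The genes whose levels ran most like those of each of the 8 were named from 10768 genes by Pearson's r of log2 levels over the 12 libraries, which share groups and depth, as a description. HAS2 was most like POLR2B (r = 0.959), SERTAD2 (0.951) and ST3GAL4 (0.949). This r does not grade the size of a change. POLR2B stood at 255 CPM in WT DMSO, 260 in WT paclitaxel, 281 in GLI2 KO DMSO and 266 in GLI2 KO paclitaxel. HAS2 stood at 4.19, 6.62, 17.8 and 8.39 CPM in that order. HAS3 was closest to TAF7 (0.990), ZNF827 (0.989) and the noncoding RNA gene LUCAT1 (0.984). CEMIP was closest to TNFAIP3 (0.991) and NFKB2 (0.990), genes of the NF-kB pathway, and MAP2K3 (0.989). TNFAIP3 went from 10.5 to 55.9 CPM in WT cells and from 15.1 to 93.9 CPM in GLI2 KO cells with paclitaxel.

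CEMIP2 was closest to ELL2 (r = 0.996), ZNF721 and RMND5A, and HYAL1 to CFLAR (0.987), SPRED1 and TUFT1. CD44 was closest to YKT6 (0.983), HYAL2 to IGFBP4 (0.980) and HYAL3 to ATXN7L3 (0.917). IGFBP4 stood at 910 CPM in WT DMSO, 718 in WT paclitaxel, 1652 in GLI2 KO DMSO and 940 in GLI2 KO paclitaxel. Among the 8 genes themselves, r was -0.78 between HAS2 and HAS3, -0.91 between HAS3 and HYAL2, and 0.90 between CEMIP and CEMIP2.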

How the data were processed

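RNA from 12 libraries was analysed from the deposited table of counts, whole-number counts per gene that had not been normalised. The deposited table of normalized signal holds the same counts divided by 1 factor per library and was not tested. DESeq2 1.36.0, STAR, hg38 and Trim Galore 0.6.7 appear, without roles, in the submitters' processing notes. Counter, annotation and strand use: not given in the sources used here. Per the labels' protocols RNA was extracted with QIAzol and cDNA made with qScript cDNA supermix.

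Counts were tested with edgeR 4.0.16 (R 4.3.3; glmQLFit and glmQLFTest, robust, TMM factors, filterByExpr with a minimum count of 10) over all 12 libraries with 4 group means and 8 residual degrees of freedom. P-values are two-sided, adjusted by Benjamini-Hochberg over 21974 genes within each comparison, and called under 0.05. Each SE was obtained by dividing the size of the log2 fold change by the root of its F statistic. The script was tested on simulated data. Groups came from sample titles. The alternatives tried were library totals, upper-quartile or RLE factors, no filter, a minimum count of 50, DESeq2 1.42.0, limma 3.58.1 voom, only the groups compared, leaving out each library, and the longest transcript as the length. The 8 genes, the pathway and marker lists and the naming rule were chosen with earlier results of these data known: from each list, up to 4 called genes per comparison with the largest change and at least 1 CPM in a group, and the 3 most similar genes of at least 5 CPM. Some list genes are counted but not reported by name here. Rows were matched to GENCODE 29 (93.5% matched). Replicates differed beyond counting noise in every group (chi-square per degree of freedom 2.9 to 17.9), so none was counted as a duplicate. An exact permutation test of 3 against 3 libraries cannot go below p = 0.1.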

Additional observations from a re-analysis of the deposited data

Results flagged for a closer look

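The paclitaxel effect differed between genotypes for HAS2 by -1.75 on the log2 scale (GLI2 KO minus WT), with a rise of 0.66 in WT cells and a fall to a log2 fold change of -1.09 in GLI2 KO cells. This was tested as a difference of effects with edgeR (adjusted p = 3.04e-10).

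The same test was passed by 20 genes of the pathway lists, of which 18 are given here, with adjusted p-values from 0.000153 for PTX3 to 0.0467 for TLR4, and by 13.5% of all tested genes. In GLI2 KO cells the effect was more positive for HMMR, a hyaluronan receptor also known from the mitotic spindle (0.36), HPSE (0.35), TIAM1 (0.30), RDX (0.22), the proteoglycan gene VCAN (0.19), ERBB2 (0.18), CSGALNACT2 (0.17) and OGT (0.14). It was more negative for the link protein gene HAPLN1 (-1.96), whose group means were only 0.0567 to 0.340 CPM, PTX3 (-0.40), NF2 (-0.37), HAPLN3 (-0.35), TLR4 (-0.21), MMP14 (-0.17), LAYN (-0.16), EXT2 (-0.15), SRSF1 (-0.13) and UGP2 (-0.13). MESD, which overlaps CEMIP, also passed (-0.16).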

How the results depend on the processing

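Of 792 values of the 8 genes under alternatives, 761 kept their direction and their side of the threshold, 11 lost the call, 6 gained one and 14 changed sign. The sign changes were those of values near 0. HYAL2 in the paclitaxel comparison of WT cells (main -0.11) became 0.03 with upper-quartile factors and 0.05 with library totals. CD44 between genotypes in DMSO (main 0.00) became -0.01 with RLE factors and with DESeq2, -0.02 with upper-quartile factors, -0.03 with library totals, -0.0042 with no filter, -0.0038 with a minimum count of 50, -0.00074 with limma voom and -0.0023 with only the groups compared, and ran from -0.02 to 0.03 when 1 library was left out. HYAL1 between genotypes in paclitaxel ran from -0.07 to 0.10 when 1 library was left out. The cause of these was not tested.

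Scaling moved the split of all genes with paclitaxel: in WT cells 7613 genes were higher and 7047 lower, against 9905 higher and 4731 lower under upper-quartile scaling and 10352 higher and 4295 lower under library totals. In GLI2 KO cells the split was 7250 higher and 7077 lower, against 9324 higher and 4791 lower under the former and 10398 higher and 3831 lower under the latter. The median log2 fold change of all genes moved from 0.03 to 0.19 in WT and from 0.02 to 0.20 in GLI2 KO cells with library totals. No library had a measure of RNA per cell, and changes are relative. The pathway lists were recounted under the scalings after the data had been seen. HAS2 kept its 5 calls and directions under each alternative, and HAS3 its 4. The titles carry library numbers, 1 to 6 for WT and 7 to 12 for GLI2 KO cells, so genotype runs with the numbering. The numbers alternate between DMSO and paclitaxel in GLI2 KO cells but not in WT cells. No label says that they pair samples, so no paired analysis was run.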
